A study of Mus musculus with 5 samples.

Results

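The genes described here are 10 immediate early and early stress response genes of the mouse liver: Fos, Fosb, Jun, Junb, Atf3, Egr1, Klf6, Myc, Ier3 and Dusp1. They were found by gene name among the non-control probes of Agilent whole mouse genome arrays, which gave 10 of 28630 gene names, 14 of 41174 probes and 41 of 43379 spots. Liver biopsies came from male C57BL/6J mice, an inbred laboratory strain, aged 25 weeks. HFHFr stands for a diet rich in fat and fructose. The HFHFr-NA mice ate it for 16 weeks and then normal diet with all-trans retinoic acid for 4 weeks, and the labels call them recovered from insulin resistance. The HFHFr-N mice had the same 16 weeks and then 4 weeks of normal diet alone, and were insulin resistant. The HFHFr-FA mice had the same 16 weeks and then 4 weeks of the HFHFr diet with all-trans retinoic acid. They were free of insulin resistance with slight steatosis. The HFHFr-F mice stayed on the HFHFr diet for 20 weeks and had severe insulin resistance, and the control mice were untreated. Each group was represented by 1 single-colour array carrying RNA pooled from 5 mice, so no difference below has a replicate check and no test between groups was possible. "Higher" and "lower" describe these 5 pools.

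Immediate early genes are transcribed within minutes of a growth factor, cytokine or stress signal, without new protein synthesis, and their messenger RNAs are short-lived. Fos and Jun family proteins pair to form AP-1, the factor that binds TPA response elements, and Atf3, Egr1, Klf6 and Myc encode further DNA-binding regulators. Ier3 and Dusp1 are not transcription factors: Ier3 modulates cell survival, and Dusp1 is a phosphatase that switches off mitogen-activated protein kinases. In liver the genes are known for their induction after partial hepatectomy, injury and inflammatory stimulation, and ligand-bound retinoic acid receptors are known from cultured cells to interfere with AP-1.

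Promoters, stretches that can hold sites for rapid signals, are shown for 6 of the genes. They belong to Fos, Jun, Klf6, Atf3 and Ier3, which had their highest signals in the 2 pools still on the HFHFr diet, and to Dusp1, whose 5 pools stayed within 2-fold. Each runs 5′ to 3′ along the gene from 250 bases before to 50 after the transcription start, from RefSeq on GRCm38.p6. The windows of 8 of the 10 genes were searched, and those of Egr1 and Myc were not. Capitals mark a cyclic AMP response element core (TGACGT on either strand), the related TGACATCA, or a kappa B element. The Fos window is chr12:85473640-85473939, plus strand; Jun is chr4:95052173-95052472, minus; Klf6 is chr13:5861239-5861538, plus. The Atf3 window is chr1:191183284-191183583, minus; Ier3 is chr17:35821463-35821762, plus; Dusp1 is chr17:26508423-26508722, minus.
Fos: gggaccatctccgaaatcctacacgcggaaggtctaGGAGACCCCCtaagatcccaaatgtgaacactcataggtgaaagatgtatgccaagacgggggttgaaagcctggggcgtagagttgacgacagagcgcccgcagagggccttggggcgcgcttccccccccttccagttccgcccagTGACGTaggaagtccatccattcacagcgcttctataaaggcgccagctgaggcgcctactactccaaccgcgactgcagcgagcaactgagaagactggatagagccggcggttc
Jun: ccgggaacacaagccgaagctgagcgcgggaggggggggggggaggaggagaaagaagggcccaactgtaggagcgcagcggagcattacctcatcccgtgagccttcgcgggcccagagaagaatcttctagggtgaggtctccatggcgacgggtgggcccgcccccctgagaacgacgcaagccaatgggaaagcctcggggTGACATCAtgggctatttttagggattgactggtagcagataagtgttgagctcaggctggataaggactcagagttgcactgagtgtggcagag
Klf6: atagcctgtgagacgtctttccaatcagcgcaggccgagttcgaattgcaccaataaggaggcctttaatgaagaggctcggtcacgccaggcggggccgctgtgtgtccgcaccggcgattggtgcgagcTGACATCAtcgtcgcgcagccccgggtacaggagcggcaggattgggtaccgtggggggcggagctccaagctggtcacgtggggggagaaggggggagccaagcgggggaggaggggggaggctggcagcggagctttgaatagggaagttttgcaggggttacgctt
Atf3: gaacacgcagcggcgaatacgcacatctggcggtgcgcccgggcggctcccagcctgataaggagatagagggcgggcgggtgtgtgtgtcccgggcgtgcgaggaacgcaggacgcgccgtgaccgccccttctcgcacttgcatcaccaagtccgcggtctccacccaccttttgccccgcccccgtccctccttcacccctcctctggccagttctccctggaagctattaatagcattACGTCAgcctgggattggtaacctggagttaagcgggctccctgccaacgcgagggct
Ier3: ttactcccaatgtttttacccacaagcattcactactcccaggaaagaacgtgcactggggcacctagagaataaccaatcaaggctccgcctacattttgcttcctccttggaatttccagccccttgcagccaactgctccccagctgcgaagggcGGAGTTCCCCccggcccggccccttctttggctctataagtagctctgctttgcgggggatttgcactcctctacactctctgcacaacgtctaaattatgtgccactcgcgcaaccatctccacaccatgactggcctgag
Dusp1: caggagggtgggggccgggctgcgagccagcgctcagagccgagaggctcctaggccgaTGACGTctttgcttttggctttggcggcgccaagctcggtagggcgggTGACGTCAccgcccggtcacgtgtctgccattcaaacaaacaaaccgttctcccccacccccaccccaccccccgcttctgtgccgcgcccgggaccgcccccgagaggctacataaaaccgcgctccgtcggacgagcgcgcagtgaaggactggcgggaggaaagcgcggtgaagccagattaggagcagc

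The core TGACGT stood in 3 of the 8 windows searched, those of Fos, Atf3 and Dusp1, and in 7.51% of 32851 RefSeq promoters of the same length. In Fos it began 66 bases before the start. In Dusp1 the full palindrome TGACGTCA, which contains the core on both strands, began 143 bases before it, and 1.79% of all promoters held this motif. Jun and Klf6 shared the 8 letters TGACATCA, a sequence known from the Jun promoter as a site for Jun and ATF proteins, 45 and 119 bases before their starts, as did 3.62% of all promoters. That motif was added after the sequences had been read. A kappa B element was found in Fos, Fosb and Ier3 and in 8.46% of all promoters. None of the 8 windows held the AP-1 letters TGANTCA, present in 7.81% of promoters, the CArG box that serum response factor binds, in 1.63%, or a DR5 direct repeat of the kind retinoic acid receptors bind, in 0.00913%. For DR5 only a single exact spelling of the repeat was searched, which 3 of the 32851 promoters held. So rare a spelling would almost always be missing from 8 windows. Its absence therefore says nothing about other spellings or about retinoic acid receptor sites in general. Both strands were searched, and a match describes letters, not binding. Sites outside these windows, and any site of Egr1 or Myc, were not searched.

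All signals below are scaled so that each array's 75th percentile is 100, and signals of different probes were not set against each other. Feature Extraction, the scanner software, attaches an error of about 10% to bright spots, which is about 0.20 on the log2 scale for a ratio of 2 arrays. It does not cover differences between mice, extractions or arrays. Neither does the spread of the spots of 1 probe, which are repeats on 1 array of 1 pool. Of the 10 genes, 7 were well above background on all 5 arrays, and Fos, Fosb and Ier3 on some. The share of spots well above background ran from 46.7% to 49.4% over the arrays. HFHFr-FA was hybridised on a slide of its own and scanned separately from the other 4, and wherever HFHFr-FA enters, its slide cannot be told apart from its treatment. Biopsies are mixed tissue, and more cells of a type and more RNA per cell cannot be told apart.

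The 2 pools still on the HFHFr diet at sampling carried the highest signals for most of these genes. For Fos, Jun, Atf3, Egr1, Klf6, Myc and Ier3, 7 of the 10, both HFHFr-FA and HFHFr-F lay above each of the other 3 pools. The same held for 12.3% of the 15604 genes well above background on at least 1 array. Fos and Ier3 were measured in those 2 pools only, so their place in this count follows from where they could be measured. Without them and Fosb the count was 5 of the 7 genes well above background on all arrays, where 11.6% of 13132 genes showed it. This way of counting was chosen after the values had been seen. Dusp1, Junb and Fosb had other orders.

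**Figure D1:**
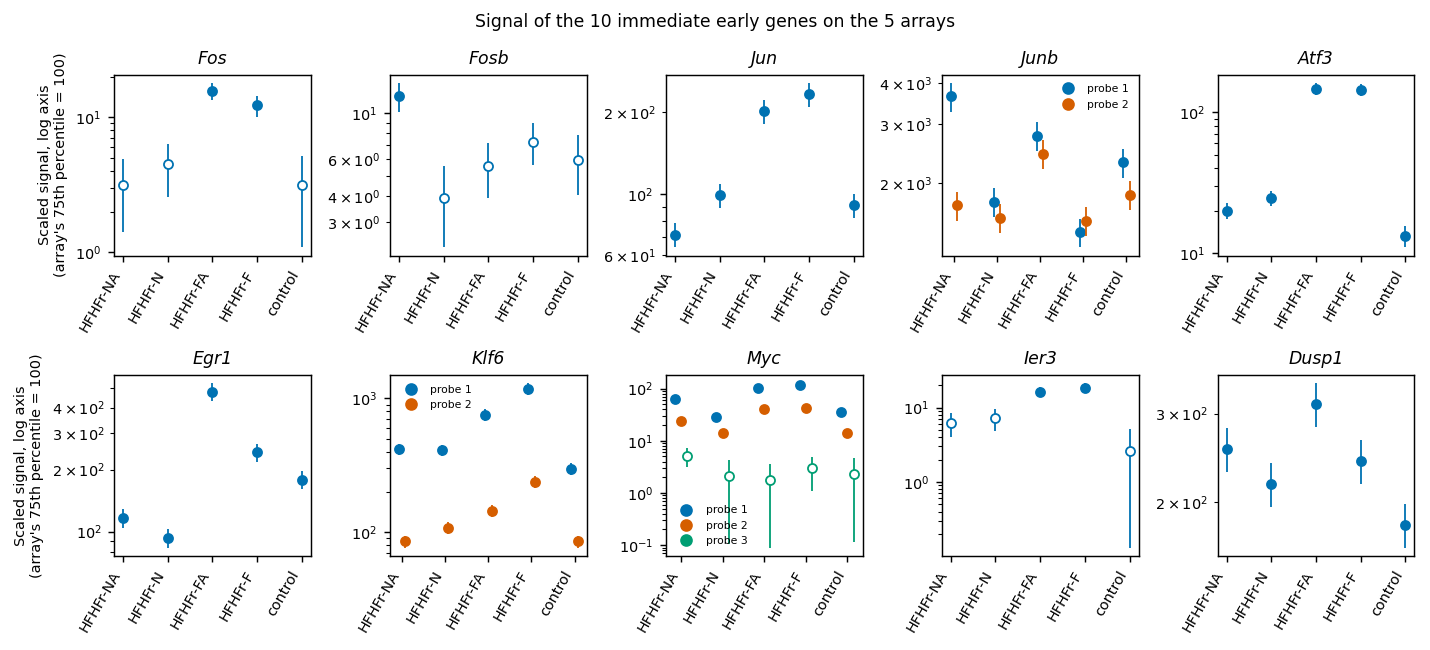
Scaled signal (log axis, array's 75th percentile = 100) of every probe of the 10 genes in the 5 pools, with the scanner software's error as bars; lower bars that would pass 0 are shortened, and open points are not well above background. Atf3 lies at 147 and 144 in HFHFr-FA and HFHFr-F and at 13.3 to 24.6 elsewhere, whereas Dusp1 stays between 180 and 314.

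Among the AP-1 subunits, Jun (probe at mm9 chr4:94715864-94715923, minus strand) was spotted 10 times. Its mean signal was 71.2 in HFHFr-NA, 99.4 in HFHFr-N, 202 in HFHFr-FA, 233 in HFHFr-F and 91.2 in control. The pools on the HFHFr diet stood apart from the rest. Spots ran from 194 to 206 in HFHFr-FA over the 8 used, and from 223 to 246 in HFHFr-F. They ran from 95.5 to 106 in HFHFr-N and from 84.2 to 106 in control. HFHFr-N and control overlapped spot by spot, and their means differed by 0.12 on the log2 scale, within the software's error of 0.21. HFHFr-NA, whose spots ran from 67.6 to 79.8, was the lowest pool and did not overlap control.

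Fos, the partner of Jun in AP-1 (chr12:86817900-86817959 in mm9, plus strand), was dim. Its 10 spots averaged 15.7 in HFHFr-FA, where all 10 were well above background, and 12.2 in HFHFr-F, where 9 were. The averages were 3.17 in HFHFr-NA, 4.47 in HFHFr-N and 3.14 in control, where 0 of 9, 1 of 10 and 0 of 10 spots were well above background. Fos was thus measured in the HFHFr-fed pools and not measured in the others. The spots of HFHFr-FA (10.2 to 21.6) and HFHFr-F (8.80 to 15.9) overlapped, and the highest HFHFr-N spot, at 9.72, lay within the HFHFr-F range.

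Fosb, a second Fos family subunit (chr7:19888477-19888536 in mm9, minus strand), had 1 spot. Its signal was 12.03 in HFHFr-NA, 3.91 in HFHFr-N, 5.55 in HFHFr-FA, 7.28 in HFHFr-F and 5.93 in control. It was well above background in HFHFr-NA alone.

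Junb, a Jun family subunit with weaker activating capacity than Jun, had 2 probes on chromosome 8. The first (mm9 chr8:87500843-87500902, minus strand) gave 3642 in HFHFr-NA, 1756 in HFHFr-N, 2773 in HFHFr-FA, 1418 in HFHFr-F and 2304 in control. Both pools given retinoic acid were above control, and both pools without it were below. The second probe (chr8:87500881-87500940) gave 1710, 1570, 2450, 1533 and 1838 in the same order. It placed HFHFr-FA highest, and the steps between neighbours in the order control, HFHFr-NA, HFHFr-N and HFHFr-F were all within the software's error. The probes overlap, starting 38 bases apart and sharing the following 22 bases at chr8:87500881-87500902, which are shown because probes with common sequence gave different orders.
Junb shared stretch: TTCGTGTCTAAAGTCTATTTTA

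**Figure D2:**
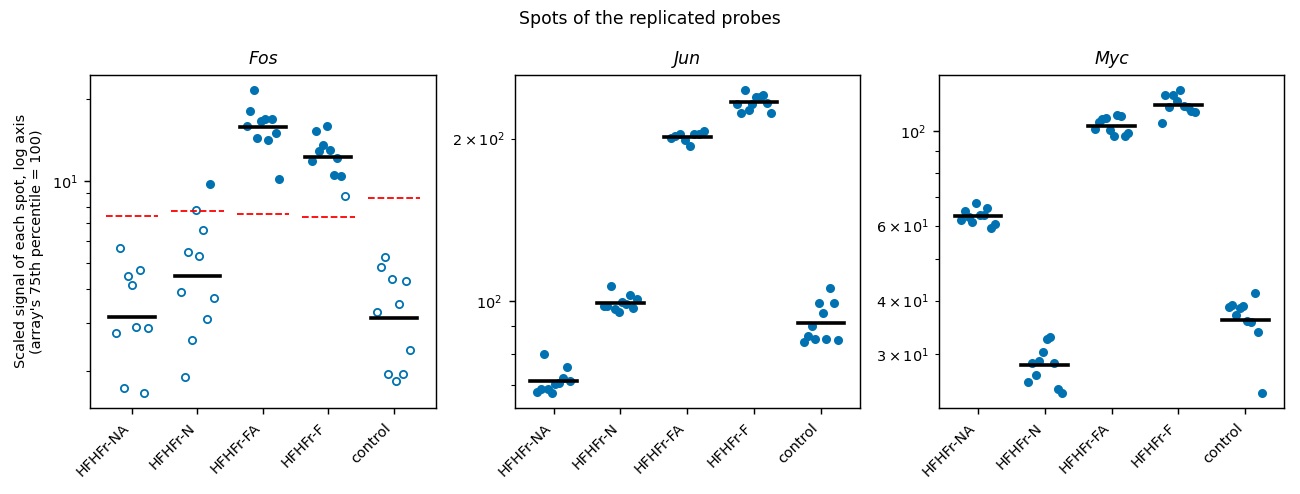
Scaled signal (log axis) of each spot of the probes of Fos, Jun and Myc that were printed 10 times, by pool; bars are means on the log scale, open points are not well above background, and dashed lines in the Fos panel mark the array's lowest probe signal that counted as well above background. Jun spots of HFHFr-FA and HFHFr-F, from 194 to 246, lie above all spots of the other pools, none of which exceeds 106.

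Atf3, a stress-induced member of the ATF/CREB family (probe at mm9 chr1:192994547-192994606, minus strand), had the widest range of the 7 genes measured on all arrays. Its signal was 19.9 ± 2.61 in HFHFr-NA, 24.6 ± 3.01 in HFHFr-N, 147 ± 14.8 in HFHFr-FA, 144 ± 14.5 in HFHFr-F and 13.3 ± 2.35 in control (± the software's error, 1 spot each). The HFHFr-fed pools were level with each other and far above the rest. Egr1, a zinc finger factor induced by growth factors, gave 116 in HFHFr-NA, 92.9 in HFHFr-N, 479 in HFHFr-FA, 243 in HFHFr-F and 179 in control. Its order differed from that of Atf3: HFHFr-FA stood alone at the top, and both pools returned to normal diet were below control. Each step in that order exceeded the software's error.

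Klf6, a Krüppel-like zinc finger factor, had 2 probes. The brighter (mm9 chr13:5869371-5869430, plus strand) gave 417 in HFHFr-NA, 411 in HFHFr-N, 757 in HFHFr-FA, 1185 in HFHFr-F and 297 in control. The other (chr13:5866706-5866765) gave 85.3, 108, 145, 237 and 85.2 in the same order. Both probes placed HFHFr-F first and HFHFr-FA second. HFHFr-NA and HFHFr-N differed by 0.02 on the log2 scale on the first probe, within the error. On the second, HFHFr-NA was 0.33 below HFHFr-N, beyond the error of 0.21, and level with control.

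Myc, a basic helix-loop-helix factor that drives growth genes with its partner Max, had 3 probes. The probe spotted 10 times (mm9 chr15:61821516-61821576, plus strand) averaged 63.1 in HFHFr-NA, 28.2 in HFHFr-N, 103 in HFHFr-FA, 115 in HFHFr-F and 36.0 in control. A second probe gave 23.4, 14.0, 40.2, 42.4 and 14.2, and the last was not well above background on any array. Myc in HFHFr-NA lay between the HFHFr-fed pools and control without overlapping either: its spots ran from 59.2 to 67.7, against 24.3 to 41.7 in control. The spots of HFHFr-N ran from 24.3 to 32.9, below 9 of the 10 control spots (33.7 to 41.7), and the remaining control spot was at 24.3.

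Ier3 (mm9 chr17:35959528-35959587, plus strand) gave 16.2 in HFHFr-FA and 18.5 in HFHFr-F, where it was well above background. It gave 6.15 in HFHFr-NA, 7.26 in HFHFr-N and 2.61 in control, where it was not. Dusp1 (chr17:26642796-26642853, minus strand) gave 255, 217, 314, 242 and 180 in HFHFr-NA, HFHFr-N, HFHFr-FA, HFHFr-F and control. All 4 pools that had eaten the HFHFr diet were above control, and no pair of pools was 2-fold apart. HFHFr-NA and HFHFr-F differed by less than the software's error, as did HFHFr-F and HFHFr-N.

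The first comparison asked what the HFHFr diet kept up for 20 weeks did relative to no treatment. Of the 9 genes measured, 5 were at least 2-fold higher in HFHFr-F and 0 lower, with a median log2 ratio of 1.103. Fos and Ier3 entered through HFHFr-F alone, so they could not come out lower. Ier3 is among the 5, and the median is its bound. Over all 14628 genes measured, 8.61% were 2-fold apart, 5.40% higher and 3.21% lower, with a median of -0.08. Atf3 was 10.8-fold higher (log2 ratio 3.43), Klf6 3.99-fold (1.995), Myc 3.21-fold (1.68) and Jun 2.56-fold (1.35). With normexp background correction and quantile normalization Atf3 was at 2.06 and Myc at 1.09, still past 2-fold. The second probes of Klf6 and Myc gave 1.48 and 1.58. Ier3 was at least 2.15-fold higher and Fos at least 1.42-fold, both bounds against the lowest signal measurable on the control array. Under the same alternative the bound of Ier3 was 0.39 on the log2 scale, under 2-fold. Egr1 (0.44) and Dusp1 (0.43) stayed under 2-fold. Junb went the other way, at -0.70 on the first probe and -0.26 on the second.

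**Figure D3:**
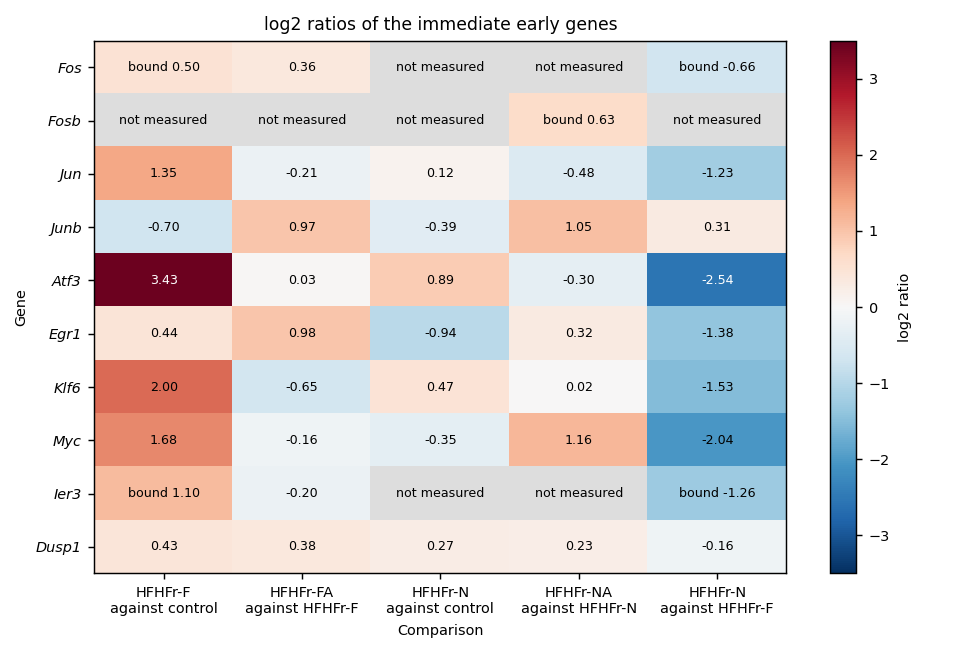
log2 ratios of the 10 genes in the 5 comparisons, as colour and number; "bound" marks ratios against an array on which the gene was not well above background, and grey cells had no measured side. The column of HFHFr-F against control runs from -0.70 (Junb) to 3.43 (Atf3), and that of HFHFr-N against HFHFr-F is negative for 8 of 9 genes.

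The second comparison asked what retinoic acid added to the HFHFr diet did, by setting HFHFr-FA against HFHFr-F. At 2-fold, 0 of 9 genes measured were apart, where 5.55% of all genes were, 2.71% higher and 2.83% lower, and the median log2 ratio was 0.03, as over all genes. Atf3 (0.03), Myc (-0.16), Ier3 (-0.20) and Jun (-0.21) were at most 1.16-fold apart. Egr1 at 0.98 and Junb at 0.97 lay just under the 2-fold line, and Junb's second probe gave 0.68. Klf6 was lower in HFHFr-FA on both probes, at -0.65 and -0.72. Set against control, HFHFr-FA gave log2 ratios of 3.46 for Atf3, 1.52 for Myc, 1.42 for Egr1, 1.35 for Klf6 and 1.14 for Jun. The second probes of Myc and Klf6 gave 1.498 and 0.76, so the probes of Klf6 disagreed at 2-fold. Egr1 was over 2-fold above control in HFHFr-FA and not in HFHFr-F, a difference not tested.

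HFHFr-N was next set against control, after 4 weeks back on normal diet. Of 7 genes measured 0 were 2-fold apart, where 1.99% of all genes were, 1.15% higher and 0.834% lower. The largest ratios were -0.94 for Egr1 and 0.89 for Atf3, followed by 0.47 for Klf6. Jun (0.12) was within the software's error, with overlapping spots. Myc at -0.35 was beyond its error of 0.24, and 9 of 10 control spots lay above every HFHFr-N spot, whereas its second probe gave -0.02. Fos, Fosb and Ier3 were measured in neither pool.

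HFHFr-NA was set against HFHFr-N to ask about retinoic acid during the return to normal diet. Of 8 genes measured, 2 were at least 2-fold higher in HFHFr-NA and 0 lower, against 2.84% of all genes 2-fold apart, 1.51% higher and 1.32% lower. Myc was 2.24-fold higher (log2 ratio 1.16) on the probe spotted 10 times, with no overlap between spots, and 1.67-fold (0.74) on its second probe. Junb was 2.07-fold higher (1.05) on its first probe and 1.09-fold (0.12) on its second. For both genes the probes thus disagreed on the 2-fold call. With normexp and quantile normalization Myc was at 0.63, and neither gene reached 2-fold. Fosb was higher by a bound of 1.55-fold. Jun was lower, at -0.48, with no overlap between spots, and so was Atf3 at -0.30, beyond its error of 0.26. Klf6 was level on its first probe (0.02) and lower on its second (-0.33).

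HFHFr-N was also set against HFHFr-F, leaving the HFHFr diet against staying on it. Of 9 genes measured, 6 were at least 2-fold lower in HFHFr-N and 0 higher, with a median log2 ratio of -1.26. Fos and Ier3 entered through HFHFr-F alone, so they could not come out higher, and the median is the bound of Ier3. Over all genes 5.78% were 2-fold apart, 2.15% higher and 3.64% lower, with a median of 0.10. The 6 were Atf3 at -2.54, Myc at -2.04, Klf6 at -1.53, Egr1 at -1.38, Jun at -1.23 and Ier3 at a bound of -1.26. Fos was lower by a bound of -0.66. With normexp and quantile normalization Atf3 was at -1.65, Myc at -1.24 and the bound of Ier3 at -0.15. Dusp1 (-0.16) lay within the software's error, and Junb was the gene with a higher signal in HFHFr-N, at 0.31 on its first probe and 0.04 on its second, the second within the error. The 5 comparisons share arrays: HFHFr-F and HFHFr-N each enter 3 of them and control enters 2, so their ratios are not independent.

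**Figure D4:**
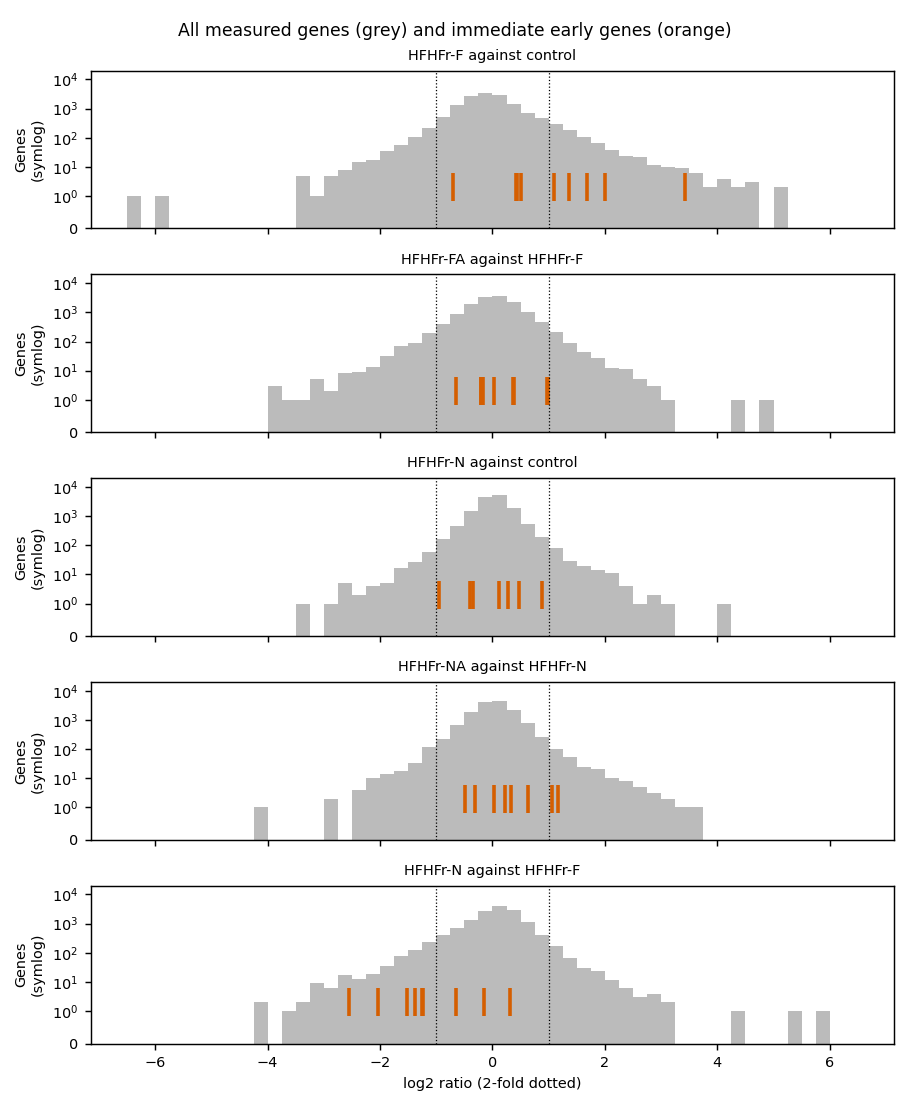
Number of measured genes per log2 ratio bin in each comparison (grey, symmetric log axis) with the ratios of the immediate early genes measured there (orange marks) and the 2-fold lines (dotted). In HFHFr-F against control 5 marks lie beyond the upper line, and in HFHFr-N against HFHFr-F 6 lie beyond the lower one.

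Beside these genes, 54 further immediate early genes on a list of such genes matched the arrays. In HFHFr-F against control 5 of 47 measured were 2-fold higher and 0 lower, with a median of 0.24. Egr2, a relative of Egr1, was higher by a bound of 2.48 on the log2 scale. The antiproliferative gene Btg2 was higher by 1.62, the NF-kappa B inhibitor Tnfaip3 by 1.602, the kinase phosphatase Dusp2 by 1.42 and Ier5 by 1.19. In HFHFr-N against HFHFr-F 6 of 47 were 2-fold lower and 0 higher, among them Egr2 (bound -2.54), Btg2 (-1.60) and Tnfaip3 (-1.52). The 5 of 47, 10.6%, were all higher. Over all genes 8.61% were 2-fold apart in HFHFr-F against control, 5.40% higher and 3.21% lower. The 6 of 47, 12.8%, all lower, stood against 5.78% in HFHFr-N against HFHFr-F, 2.15% higher and 3.64% lower. Of the 10 genes, 55.6% and 66.7% of those measured were 2-fold apart in the same 2 comparisons. Both shares count the bound of Ier3, which was measured in HFHFr-F alone there. Jund, the Jun family member known for steady expression, differed by 0.37 in HFHFr-F against control, with signals of 6720.5 and 5207.

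The 3 Gadd45 genes, stress-induced growth arrest genes of the same list, had 3 different orders of pools. Gadd45g had signals of 5099 in HFHFr-NA, 1240 in HFHFr-N, 8776 in HFHFr-FA, 1912 in HFHFr-F and 2608 in control. Both retinoic acid pools were above their counterparts, by 2.04 for HFHFr-NA against HFHFr-N and 2.20 for HFHFr-FA against HFHFr-F. Gadd45b was 1.16 higher in HFHFr-FA against HFHFr-F and 0.15 higher in HFHFr-NA against HFHFr-N. Gadd45a was lower in both, by ratios of -0.83 and -0.77. In HFHFr-FA against HFHFr-F 6 of 48 listed genes were 2-fold higher and 0 lower, against 2.71% and 2.83% of all genes, with Plk3 at 1.12 and Id3 at 1.11 among them. In HFHFr-NA against HFHFr-N 3 of 45 were higher, including Btg2 at 1.01, and 1 was lower, Ppp1r15a at -1.09, against 1.51% and 1.32% of all genes. In HFHFr-N against control 1 of 46 was higher, Gadd45a at 1.24, and 2 were lower, Gadd45b at -1.68 and Gadd45g at -1.07, against 1.15% and 0.834% of all genes.

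Of 27 kinases and factors upstream of these genes, 26 were measured and 0 to 2 were 2-fold apart in each comparison. The 2 of 26 in HFHFr-F against control, 7.69% and both lower, were near the 8.61% over all genes, 5.40% higher and 3.21% lower. Egfr, the epidermal growth factor receptor, had signals of 3622 in HFHFr-NA, 1785 in HFHFr-N, 4520 in HFHFr-FA, 1335 in HFHFr-F and 6357 in control. It was highest in control, and higher in each retinoic acid pool than in the matching pool without it. Crem, a cyclic AMP response modulator, was 1.04 lower on the log2 scale in HFHFr-F against control. Among 26 measured partners, inhibitors and relatives, Dusp8 (bound 1.1), the AP-1 partner Batf3 (1.09) and Dusp10 (1.02) were higher there, and Atf5 was lower (-1.01). These were 15.4% of the 26, against 8.61% over all genes. Of 10 heat shock genes, 1 was 2-fold apart in HFHFr-F against control, Hspa1a at 1.43. Over all genes 8.61% were, 5.40% higher and 3.21% lower. The median of the heat shock genes was -0.30, and 7 of the 10 were below 0. In HFHFr-N against HFHFr-F 2 were 2-fold lower, Hspa1a at -2.01 and Hspa1b at -1.32, and 0 higher, where 3.64% of all genes were lower. In HFHFr-FA against HFHFr-F 2 were 2-fold higher, Hspb1 at 1.37 and Hsph1 at 1.18, and 0 lower, where 2.71% of all genes were higher.

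Some markers of other liver cells moved with the genes and others did not. Over all genes 5.40% were 2-fold higher and 3.21% lower in HFHFr-F against control. In HFHFr-N against HFHFr-F these shares were 2.15% and 3.64%. The summed signal of 10 Kupffer cell and macrophage markers, all well above background on every array, was 6926 in HFHFr-NA, 8694 in HFHFr-N, 13047 in HFHFr-FA, 13974 in HFHFr-F and 7272 in control. Most of the HFHFr-F sum came from Cd5l, at 6466, and Marco, at 3772. In HFHFr-F against control 3 of the 10 were 2-fold higher and 0 lower, with a median of 0.88, and Cd68 reached 1.37. There 9 of the 10 were above 0, the lowest ratio was -0.87, and Clec4f had 1126 against 1026. In HFHFr-N against HFHFr-F 2 were 2-fold lower, with a median of -0.61, and 3 were above 0, Timd4 at 0.86 the highest. The summed signal of 8 stellate cell markers was 9601, 8179, 10495, 10002 and 7132 in the same order of pools, most of it from Dcn, which had 7708 in HFHFr-F. In HFHFr-F against control 3 of 7 measured stellate markers were 2-fold higher, Col1a1 at 4.12, Col3a1 at 3.29 and Pdgfrb at 1.52. The same 3 were lower in HFHFr-N against HFHFr-F, at -3.15, -2.54 and -1.22. In HFHFr-FA against HFHFr-F, where 0 of 9 immediate early genes were 2-fold apart, Col1a1 was at -1.72 and Col3a1 at -1.71. These were 2 of 8 stellate markers, 5 of which were above 0, and 2.83% of all genes were 2-fold lower there. Cholangiocyte markers summed to 852, 1088, 1133, 6235 and 891, with Spp1 at 6044 in HFHFr-F. Of 6 measured, 4 were 2-fold higher in HFHFr-F against control, with a median of 1.17, and 5 were lower in HFHFr-N against HFHFr-F, with a median of -1.26. In HFHFr-FA against HFHFr-F 2 of 6 were 2-fold lower, Spp1 at -2.60 and Cldn7 at -1.43, and 0 higher. The hepatocyte sum over 8 markers was 452130, 409180, 331260, 337900 and 407150, lower in both HFHFr-fed pools. In HFHFr-F against control 2 of the 8 were 2-fold lower, Cps1 at -1.37 and Tat at -1.26, and 0 higher. The neutrophil sum was 698, 389, 1166, 638 and 253, although Ngp, Ltf, Elane and Cxcr2 were not well above background on any array. Camp, Mpo and Retnlg were so in HFHFr-FA alone, and S100a8 was not in control. Most of the sum came from S100a9, at 607, 334, 1012, 547 and 198. Of 3 neutrophil markers measured in HFHFr-F against control, 2 were 2-fold higher and Csf3r was at -0.11. The part of these cell types in the ratios of the immediate early genes was not tested.

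For Jun, Junb, Atf3, Egr1 and Klf6, which were measured on all arrays and spanned at least 2-fold, the 3 genes of most similar pattern were found by the root mean square difference of centred log2 signals over the 5 arrays, among 10720 candidates. For Jun they were Relb (difference 0.08), an NF-kappa B subunit, the macrophage marker Cd68 (0.09) and the lymphocyte receptor gene Ly9 (0.09). Relb had signals of 38.0 in HFHFr-NA, 50.7 in HFHFr-N, 103 in HFHFr-FA, 106 in HFHFr-F and 45.7 in control. For Klf6 they were the lipid-binding protein gene Fabp4 (0.05), the collagen gene Col1a2 (0.06) and the interferon-induced Ifi44 (0.07). The nearest to Atf3 was the monocyte chemoattractant Ccl2, at 16.5, 25.5, 96.6, 165 and 16.7 in the same order, with the looser difference of 0.34. Egr1 was nearest to Tor3a (0.19), and Junb to Itih3 (0.08), a liver-secreted inhibitor heavy chain, on its first probe. With 5 arrays and this many candidates, such likeness is a description only.

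**Figure D5:**
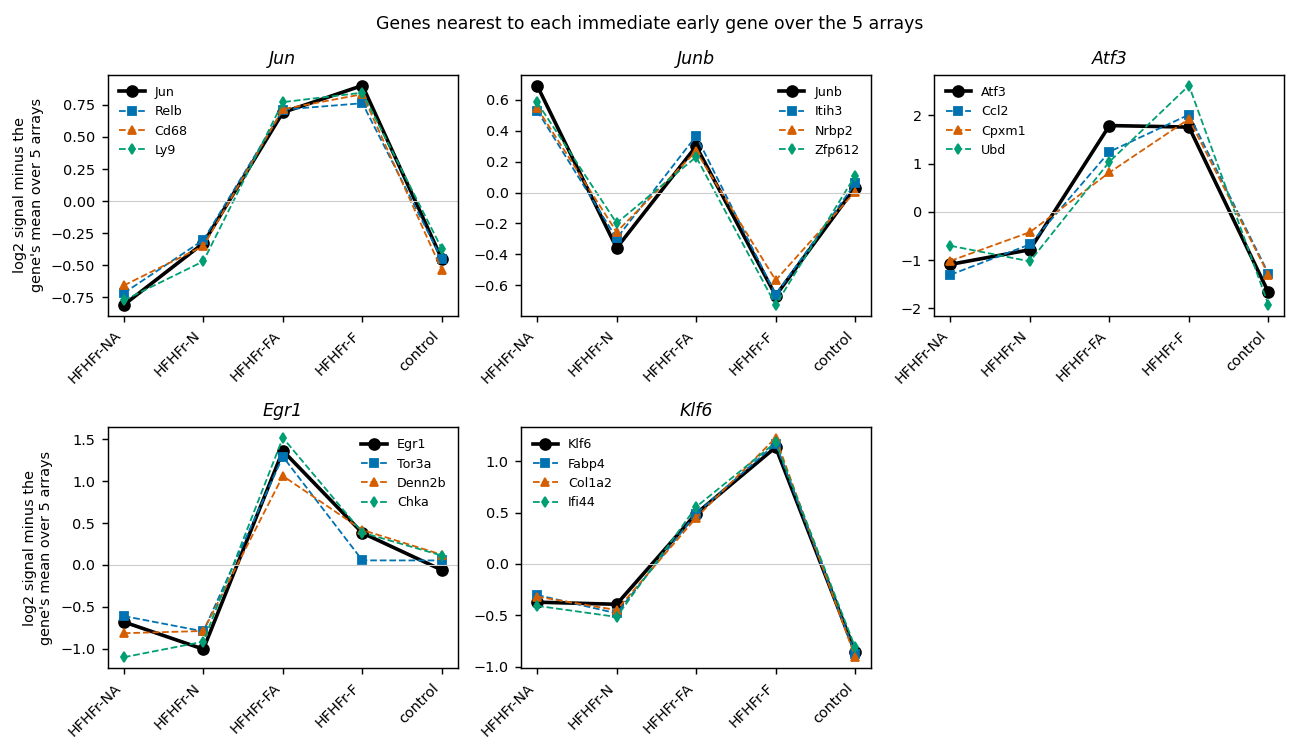
Centred log2 signal over the 5 pools of Jun, Junb, Atf3, Egr1 and Klf6 (black) and the 3 genes nearest to each (coloured). Jun, Klf6 and their neighbours are high in HFHFr-FA and HFHFr-F, whereas Junb and its neighbours are highest in HFHFr-NA.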

How the data were processed

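Processed signals of 5 arrays (Agilent 4x44K, 1 colour, 1 array per group of 5 pooled mice) were analysed. Per the file headers, the authors quantified the scans with Feature Extraction 10.5.1.1, and the processed intensity of a spot is background-subtracted and not scaled between arrays. The mean and background intensities were deposited as scanned. The value table that the authors deposited, checked spot by spot, holds the linear ratio of that intensity to 1 constant per array (column medians 0.0744 in HFHFr-NA, 0.0738 in HFHFr-N, 0.0721 in HFHFr-FA, 0.0675 in HFHFr-F and 0.0700 in control). It is uncentred, so its scale, centring and direction are known, and it served as an alternative.

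Control spots and spots marked as outliers by the software (60 to 96 per array) were left out, and none was saturated. Here log2 of the processed signal over the array's 75th percentile (172 to 223) was taken as the mean of a probe's spots. The probe with the highest mean signal stood for a gene, and other probes are reported beside it. RefSeq accessions named 24844 probes through the GRCm38.p6 gene table and 16330 kept the file's name. A gene entered a comparison if well above background on 1 of the 2 arrays. A side not measured took the higher of its own signal and the lowest signal of a probe well above background there, giving a bound. Such a bound is approximate, because the limit of a single probe can lie above that lowest signal. Genes at least 2-fold apart were counted. Median spot standard deviations of replicated probes were 0.107 to 0.173 on the log2 scale, and the number of arrays limits the precision. The medians of log2 ratios of the spots within 3 rows and columns of each spot of the 10 genes ran from -0.416 to 0.155.

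The genes and lists were chosen with earlier results of these data known. The rule for names took the 10 genes, the 3 of most similar pattern for each eligible one (those of Myc are not reported here), and up to 4 per list and comparison with the largest ratio. Jund, Ier5 and other examples outside it were chosen after their values were seen. The lists hold other immediate early genes, upstream kinases and factors, partners, heat shock genes and markers of 8 cell types. Markers of T and NK cells, endothelium and erythroid cells summed to 131, 120, 219, 143 and 122, to 3115, 3852, 3802, 2678 and 3631, and to 7303, 9567, 6502, 14172 and 9224, in HFHFr-NA, HFHFr-N, HFHFr-FA, HFHFr-F and control. Exon and intron of the probe positions, given in mm9 per the file headers, were not determined. Alternatives were the median as scale, normexp (offset 50) with quantile normalization and cyclic loess (limma 3.58.1, R 4.3.3), the value table, stricter and no filters on dim probes, the mean of all probes and a 1.5-fold threshold. Scripts ran in Python 3.11.15 and were tested on simulated data.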

Additional observations from a re-analysis of the deposited data

How the results depend on the processing

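The 5 genes higher in HFHFr-F against control became 4 to 6 over the alternatives, and the 6 lower in HFHFr-N against HFHFr-F became 5 to 7. In HFHFr-FA against HFHFr-F the count of 0 became 1 with cyclic loess and 3 at 1.5-fold. In HFHFr-N against control the count of 0 became 1 without a filter on dim probes and 2 at 1.5-fold. In HFHFr-NA against HFHFr-N the count of 2 became 0 with normexp and quantile normalization and 1 with the mean of all probes, where Junb was 0.59. The 7 genes highest in both HFHFr-fed pools became 5 (of 7 well above background on all arrays) to 8. No ratio past 2-fold changed sign. Atf3 in HFHFr-FA against HFHFr-F (-0.06 to 0.03) and Klf6 in HFHFr-NA against HFHFr-N (-0.16 to 0.07) took either sign.

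Normexp with quantile normalization gave smaller ratios in HFHFr-F against control, where Atf3 was 2.06, Myc 1.09 and Jun 1.103. It also lowered the counts over all genes, in the order of the 5 comparisons, to 486, 299, 85, 95 and 273 from 1259, 828, 288, 422 and 856, while no filter gave 3120, 2463, 1844, 2110 and 2729. At 1.5-fold they were 3409, 2772, 1174, 1685 and 2716, and with both arrays well above background HFHFr-N against control had 180 and HFHFr-NA against HFHFr-N 252. The other immediate early genes 2-fold apart in HFHFr-F against control were 8 with median scaling or cyclic loess. In HFHFr-NA against HFHFr-N they were 1 with normexp and 2 with the mean of probes, and in HFHFr-N against HFHFr-F 3 with normexp. Cyclic loess moved the median of all genes by 0.10 in HFHFr-F against control and by -0.11 in HFHFr-N against HFHFr-F, as median scaling did there, and no filter by -0.17 and -0.15 in the comparisons with control. The share of higher calls over all genes was 62.7% in HFHFr-F against control and 74.3% with cyclic loess. It was 48.9% in HFHFr-FA against HFHFr-F and 35.3% with median scaling, and 37.2% in HFHFr-N against HFHFr-F, 25.5% with median scaling and 24.4% with cyclic loess. The cause of these differences was not tested.

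No paired analysis was possible because each group is 1 array of pooled RNA, and leaving out an array would remove its group. Fos, Fosb and Ier3 had signals near background and several of their ratios are bounds.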

Other observations

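The 2 pools given retinoic acid differ in the diet they shared it with, and their direct comparison was not among the 5 above. In HFHFr-FA against HFHFr-NA the log2 ratio was 2.88 for Atf3, 2.04 for Egr1, 1.501 for Jun, 0.86 for Klf6 and 0.71 for Myc, with bounds of 1.12 for Ier3 and 1.08 for Fos. Dusp1 was at 0.30 and Fosb at a bound of -0.67. Junb was at -0.39 on its first probe and 0.52 on its second, so its direction turned with the probe. Against control, HFHFr-NA gave 0.81 for Myc, 0.66 for Junb, 0.58 for Atf3, 0.50 for Dusp1 and 0.49 for Klf6, and it gave -0.36 for Jun and -0.62 for Egr1. The second probes gave 0.72 for Myc, -0.10 for Junb and 0.0015 for Klf6, so Junb again turned and Klf6 was level. These are single pools, and HFHFr-FA was on a slide of its own.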
